A study of Rattus norvegicus with 26 samples.

Results

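The remnant liver at 24 hours after removal of 2/3 of its mass (2/3 PH, partial hepatectomy) was compared with normal liver, using 6 of the 26 single-colour rat miRNA arrays of the series. The members were the miRNAs that the scanner software called detected on all 3 arrays of 2/3 PH at 24 hours or on all 3 arrays of normal liver. There were 139 of them among the 677 miRNAs on the array, and 115 were detected on all 6 arrays. Each array held total RNA from the right liver lobes of 1 male rat. The treated rats had undergone 2/3 PH and were harvested 24 hours later. The normal rats had no resection according to the titles and the methods, although 1 label field of these arrays reads sham. The source labels of 2 of the 3 treated arrays give a slightly later hour than their titles, and the titles were followed. The remaining arrays held livers taken 6 to 36 hours after either 2/3 PH or a 1/3 PH, and they entered through the shared estimate of the spread and as comparisons for the members.

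A miRNA is a short RNA that guides a silencing complex to matching sites in mRNAs, chiefly through its seed, bases 2 to 8 from the 5′ end, so miRNAs with 1 seed are expected to share many targets. After 2/3 PH, quiescent hepatocytes of the rat re-enter the cell cycle, and the first wave of DNA synthesis falls around the hour studied here. Several miRNAs are made from common transcripts called polycistrons. The miR-17-92, miR-106a-363 and miR-106b-25 polycistrons are known for promoting passage from G1 into S phase and are driven by E2F and MYC, whereas miR-34a is a p53 target and miR-26a is a brake on cyclins. Other miRNAs mark cell types of the liver, such as miR-122 in hepatocytes, miR-142 and miR-150 in leukocytes and the miR-200 family in bile duct epithelium.

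The sequences of the called miRNAs show how few seeds the higher ones shared. Of the 26 miRNAs called in the main comparison, 21 had a mature sequence in the RefSeq table used here (build GRCr8), and they had 17 different seeds. A single seed, AAAGUGC, was held by more than 1 called miRNA. All 5 mature rat miRNAs of the table with that seed were called higher, where 9.72% of all 144 tested were called higher. They are shown first, with the seed in capitals and the rest in lower case.
miR-17-5p: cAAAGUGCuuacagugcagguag
miR-20a: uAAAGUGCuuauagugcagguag
miR-20b-5p: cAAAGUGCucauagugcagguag
miR-93: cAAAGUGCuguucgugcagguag
miR-106b: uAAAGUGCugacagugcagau
These 5 differ from each other by only 2 to 7 single-base substitutions, insertions or deletions, so hybridization to each other's probes is possible and the 5 values are not independent measurements. Called polycistron members with another seed were miR-18a and miR-25.
miR-18a: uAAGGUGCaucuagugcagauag
miR-25: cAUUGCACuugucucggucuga
In GRCr8 the mature miR-17-5p, miR-18a and miR-20a lie together on the plus strand (chr15:98587861-98588340). A second copy of miR-17-5p lies beside miR-20b-5p on the minus strand (chrX:137343239-137343637). The mature miR-106b, miR-93 and miR-25 lie on the minus strand within the span of Mcm7, a gene for a subunit of the replicative helicase (chr12:22156652-22157123).

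Other called miRNAs that the later comparisons by hour, operation or cell type turn on are shown with the seed in capitals, the higher ones before the lower ones.
miR-34a: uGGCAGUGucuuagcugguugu
miR-21: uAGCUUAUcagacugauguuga
miR-15b: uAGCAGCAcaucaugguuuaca
miR-1949: uAUACCAGgaugucagcauaguu
miR-26a: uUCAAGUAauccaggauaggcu
miR-192: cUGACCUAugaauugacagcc
miR-378: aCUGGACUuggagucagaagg
miR-378*: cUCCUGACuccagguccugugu
miR-142-3p: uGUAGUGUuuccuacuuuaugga
RefSeq places the mature miR-34a at chr5:165815971-165815992 on the plus strand and miR-21 at chr10:71902653-71902674 on the minus strand. miR-15b lies within the span of Smc4, a condensin gene (chr2:155555197-155555218, plus strand), and miR-1949 within that of Matr3 (chr18:27429753-27429775, plus strand). miR-26a lies within Ctdspl (chr8:127633063-127633084, plus strand). miR-378 and miR-378* are the 2 arms of a single hairpin within Ppargc1b, which encodes a coactivator of mitochondrial genes (chr18:57128925-57128945 and chr18:57128962-57128983, minus strand). miR-429, miR-200b, miR-150, miR-151 and miR-500 were also called and are named only.

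The arrays were of similar brightness but not of 1 batch. Total gene signal was 44858 to 68366 on the normal arrays and 46190 to 53592 on the 2/3 PH arrays, with 140 to 151 and 130 to 147 miRNAs detected, and no spot was saturated. The 3 arrays of 2/3 PH at 24 hours lay on a single slide scanned on the first of 3 scan days. The 3 normal arrays lay on 3 other slides, with 1 array on each scan day. Slide and group therefore cannot be told apart in the main comparison, and scan day can be removed only through normal liver 1 and the other groups. Values below are scaled signal units, that is, background-subtracted intensity after each array was scaled by its 75th percentile over 109 probes bright on all arrays. The level of 1 miRNA cannot be set against that of another on such arrays. The labels name 1 rat per array, so p-values refer to the spread between arrays of different rats, pooled over the 9 groups. Where the arrays of a group lay on several slides or scan days, that spread includes these differences too.

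At 24 hours after 2/3 PH, several miRNAs of the proliferation polycistrons, miR-34a, miR-21 and miR-200b were higher than in normal liver. Lower ones were miR-26a, miR-192, both arms of miR-378 and the leukocyte miRNAs miR-142-3p and miR-150. In a limma fit of all 26 arrays over the 144 miRNAs that were detected throughout at least 1 group, 26 passed an adjusted p of 0.05, which is 18.1% of those tested. All 26 were members. The 14 that were higher make 9.72% of those tested and the 12 that were lower 8.33%. These counts include miR-18a and miR-429, members through the treated group alone, and miR-338, a member through the normal group alone. Among the 115 members detected on all 6 arrays, 23 were called, 12 higher and 11 lower, and the median log2 difference was −0.01. Values of the groups did not overlap for any of the 26 called miRNAs, and 49 of the 144, or 34%, had groups without overlap. The median log2 difference over all 144 was 0.05.

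**Figure D1:**
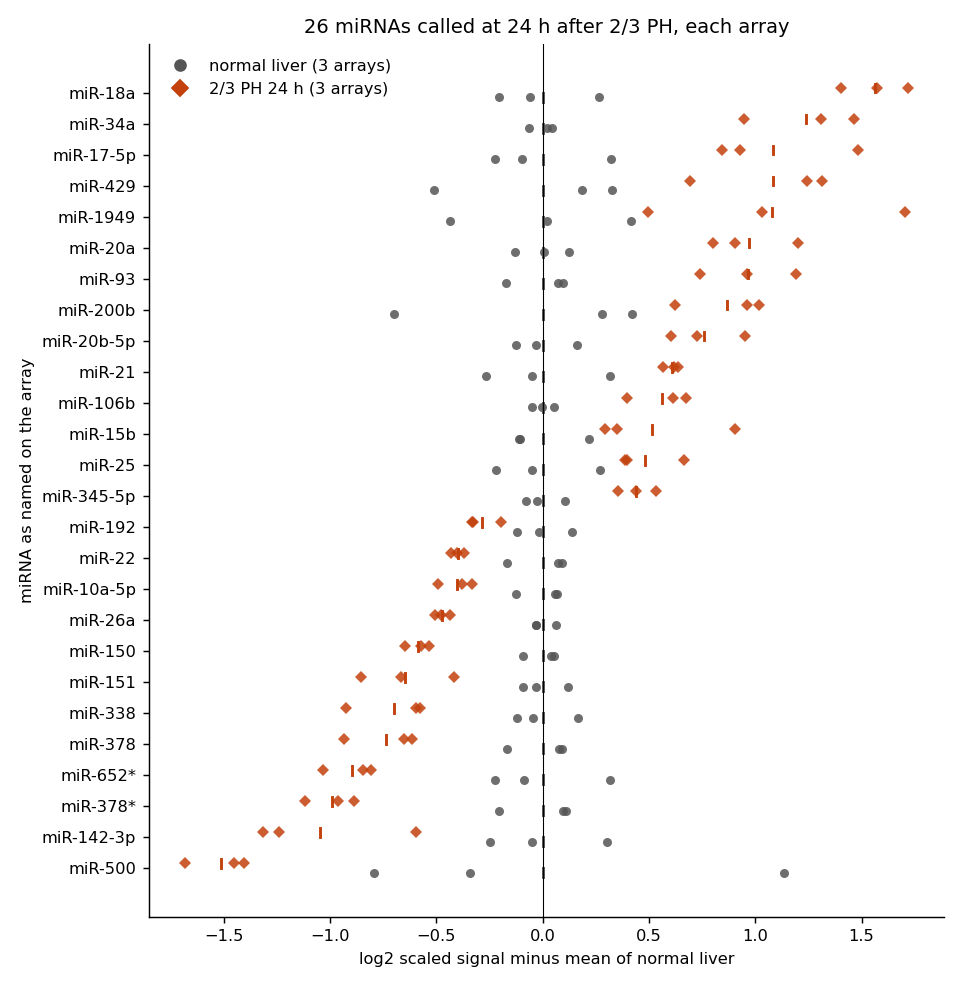
Log2 scaled signal of each array minus the mean of the 3 normal arrays (x axis) for the 26 called miRNAs (y axis), with circles for normal liver, diamonds for 2/3 PH at 24 hours and a short bar for each group mean. The groups do not overlap for any of the 26, and miR-500 has a normal array far above the other two.

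The number of calls rested on the scaling and on each array. None of the 144 passed in limma without scaling between arrays, with the percentile taken over all probes or with normexp background correction, where 13, 13 and 7 had an unadjusted p under 0.05. With the software's total gene signal in place of the summed probes 23 were called, 10 higher and 13 lower. Leaving out normal liver 3 gave 14 calls, and leaving out 2/3 PH 24 h replicate 1, 2 or 3 gave 9, 15 and 11. miR-93, miR-34a, miR-18a, miR-26a and miR-378* were called whichever of the 6 arrays was left out.

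**Figure D2:**
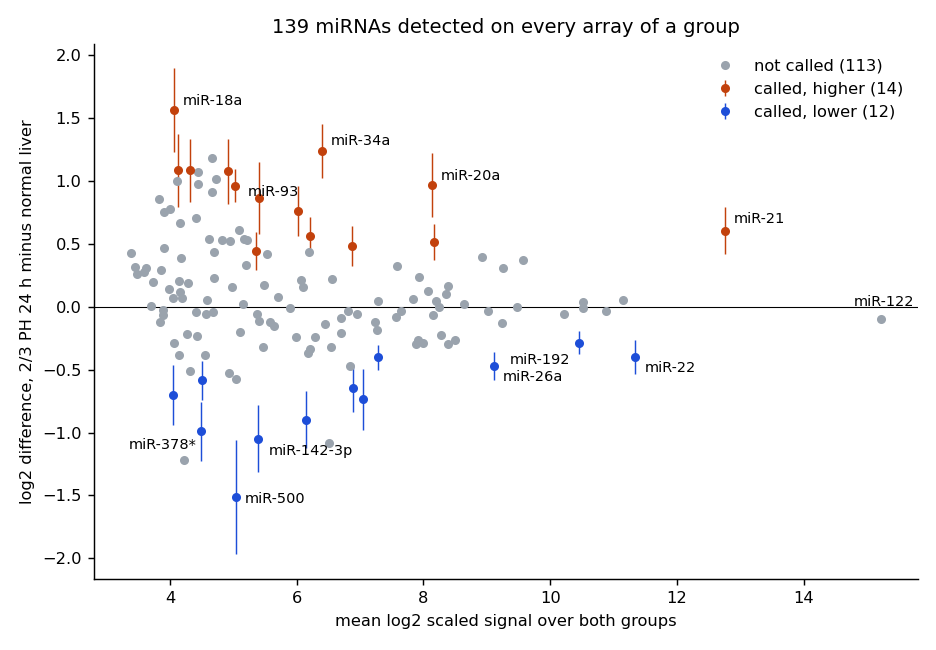
Log2 difference between 2/3 PH at 24 hours and normal liver (y axis) against the mean log2 scaled signal of both groups (x axis) for the 139 members, with the standard error drawn for called ones. The 14 higher miRNAs run from miR-18a at the low end of the signal to miR-21 near the high end, and miR-122 lies close to 0.

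All 3 main arms of the miR-106b-25 polycistron were members and were called higher, where 9.72% of all 144 were called higher, and the 3 opposite arms on the array were detected on none of the 6 arrays. miR-93 was 24.5, 24.9 and 20.7 units in normal liver and 53.1, 45.2 and 38.9 after 2/3 PH. Every treated array was thus well above every normal array, and the fold was 1.95 (log2 difference 0.96 ± 0.13, SE, n = 3 and 3, adjusted p = 5.82e-05 in limma), the smallest p of the comparison. miR-106b was 58.6, 60.5 and 63.1 units in normal liver and 92.9, 96.8 and 79.8 after 2/3 PH. Its normal arrays were tightly grouped and its fold was 1.48 (0.56 ± 0.15, adjusted p = 0.0138). miR-25 was 119, 95.3 and 84.98 units in normal liver and 130, 156 and 129 after 2/3 PH, so that the brightest normal array came near the treated ones. Its fold was 1.40 (0.48 ± 0.16, adjusted p = 0.0439). miR-25 lost its call without any 1 of the arrays other than normal liver 1 and with scan day as a block, where its log2 difference was 0.25, and miR-106b without 2/3 PH 24 h replicate 1 or 2.

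Of the miR-17-92 and miR-106a-363 polycistrons, 7 of the 21 arms on the array were members, and 4 of the 7 were called, all higher, against the same 9.72% of all 144. The other 14 arms were detected on none of the 6 arrays. The median log2 difference of the 7 was 0.76, beside 0.05 over all 144 tested. The count of 4 and this median include miR-18a, a member through the treated group alone, so both are descriptions. Only the calls of miR-17-5p, miR-20a and miR-20b-5p can be set against the 9.72%. miR-18a was 11.7, 9.32 and 8.45 units in normal liver, where it was detected on 2 of 3 arrays and 2 values stood at the lower limit of the array, and 32.1, 28.95 and 25.7 after 2/3 PH. The fitted fold was 2.96 (1.57 ± 0.33, adjusted p = 0.00685), and its size depends on the lower limit set for the normal arrays, since the log2 difference was 2.15 with a floor of 1 unit. miR-18a became a member through the treated group alone, so its direction is given as a description. miR-17-5p was 11.7, 17.1 and 12.8 units in normal liver and 38.3, 24.5 and 26.0 after 2/3 PH. It rose 2.12-fold (1.08 ± 0.25, adjusted p = 0.0106), with 1 treated array above the other two. The 11.7 units of miR-17-5p in normal liver 1 stood at the lower limit of that array, so its fold depends in part on that limit. miR-20a was 218, 183 and 201 units in normal liver and 460, 374 and 349 after 2/3 PH, a 1.96-fold rise (0.97 ± 0.26, adjusted p = 0.0138). miR-20b-5p was 45.8, 55.9 and 48.9 units in normal liver and 96.9, 82.8 and 75.95 after 2/3 PH, a 1.69-fold rise (0.76 ± 0.20, adjusted p = 0.0129). For both the treated arrays stood together above all normal arrays. The calls of miR-17-5p, miR-20a and miR-20b-5p were lost without 2/3 PH 24 h replicate 1, the highest of the treated arrays for each of these 3.

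The other 3 members of these polycistrons did not pass the test. miR-92a, which shares the seed AUUGCAC with miR-25, was 428, 394 and 454 units in normal liver and 547, 571 and 560 after 2/3 PH. Its groups did not overlap, and its log2 difference of 0.40 ± 0.15 had an adjusted p of 0.0667. miR-19b had a log2 difference of 0.30 ± 0.19 (adjusted p = 0.36) and miR-19a one of 0.16 ± 0.31 (adjusted p = 0.821), and the groups overlapped for each. The study named 5 miRNAs as acting on the cell cycle, by transfecting cell lines with candidates it chose on these arrays, so their direction is no independent evidence. On the arrays against normal liver, miR-93, miR-106b and miR-25 were higher as given above and miR-92a did not pass. The log2 difference of miR-101a was −0.32 ± 0.21 (adjusted p = 0.365).

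Outside the polycistrons, miR-34a rose most steadily. It is a p53 target that lowers cyclins and CDKs. It was 52.5, 56.5 and 55.5 units in normal liver and 105.7, 136 and 151 after 2/3 PH, a 2.36-fold rise (1.24 ± 0.22, adjusted p = 0.001). The normal arrays were nearly equal and the lowest treated array was far above them. The other 9 arms of the miR-34 and miR-449 families on the array, several with the same seed, were detected on none of the 6 arrays.

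miR-21, known from regenerating liver and from tumours, was 4671, 6992 and 5422 units in normal liver and 8741, 8612 and 8301 after 2/3 PH. The treated arrays were close together and the normal ones were not, and the fold was 1.52 (0.61 ± 0.19, adjusted p = 0.0326). miR-1949, whose function is less known, was 21.0, 27.5 and 15.3 units in normal liver and 67.3, 42.3 and 29.1 after 2/3 PH, a 2.11-fold rise (1.08 ± 0.26, adjusted p = 0.0106). Its lowest treated array was close to its highest normal array. miR-345-5p rose 1.36-fold (0.44 ± 0.15, adjusted p = 0.0482) and was the weakest call among the higher miRNAs. It lost its call without any 1 of the 6 arrays, as did miR-21 without any 1 but normal liver 2, and miR-1949 without normal liver 3 or 2/3 PH 24 h replicate 1.

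Within the family of miR-15 and miR-16, which holds cell cycle brakes with the seed AGCAGCA, miR-15b was called higher and the other 4 members were not called. Over all 144, 9.72% were called higher. miR-15b was 278, 222.1 and 221.7 units in normal liver and 293, 448 and 305 after 2/3 PH, a 1.43-fold rise (0.52 ± 0.14, adjusted p = 0.0147). Of the treated arrays, 1 stood far above the other two, and the call was lost without it, which is 2/3 PH 24 h replicate 2, or without normal liver 2 or 3. miR-16 had a log2 difference of 0.37 ± 0.23 (adjusted p = 0.36), miR-195 one of −0.30 ± 0.18 (adjusted p = 0.36) and miR-497 one of −0.27 ± 0.16 (adjusted p = 0.351). miR-322 was at −0.01 ± 0.14 (adjusted p = 0.97). The median of the 5 was −0.01, and whether miR-15b differed from its relatives was not tested.

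Of the bile duct epithelium miRNAs, 3 of the 9 arms on the array were members and 2 were called, both higher, where 9.72% of all 144 were called higher. The 2 include miR-429, a member through the treated group alone, so only miR-200b can be set against that share. miR-429 was 15.1, 13.7 and 8.45 units in normal liver and 30.0, 19.5 and 28.5 after 2/3 PH, a fitted fold of 2.12 (1.08 ± 0.29, adjusted p = 0.0138). It was detected on 2 of the 3 normal arrays and became a member through the treated group alone, so its direction is given as a description. Its 8.45 units in normal liver 3 stood at the lower limit of that array. The fold depends on that limit, and the log2 difference ran from 0.23 to 2.94 over the alternatives. miR-200b was 41.9, 38.0 and 19.3 units in normal liver and 61.0, 48.1 and 63.3 after 2/3 PH, a 1.82-fold rise (0.87 ± 0.29, adjusted p = 0.0437). Normal liver 3 was the lowest array for both, and both calls were lost without it. They were also lost without 2/3 PH 24 h replicate 1 or 3, and that of miR-200b without replicate 2. miR-200a, of the same family, was 11.7, 15.4 and 8.45 units in normal liver and 24.3, 14.2 and 21.3 after 2/3 PH (0.76 ± 0.30, adjusted p = 0.0875), and its groups overlapped. Of its values, 2 normal and 1 treated stood at the lower limit of their arrays. The summed level of the 3 members, miR-429 included, was 36.2 to 68.7 units in normal liver and 81.8 to 115 after 2/3 PH, and is a description. miR-141 and miR-200c were detected on none of the 6 arrays. In whole tissue, more or fewer cells of a type and more or less RNA per cell cannot be told apart.

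Of 7 arms of hepatocyte miRNAs on the array 4 were members, and only miR-192 among these 4 was called, a share near the 18.1% over all 144. It was 1420, 1703 and 1526 units in normal liver and 1231, 1348 and 1226 after 2/3 PH, 1.22-fold lower (log2 difference −0.29 ± 0.09, adjusted p = 0.0374), the smallest called difference of the 26. Its call was lost without normal liver 2 or 3 or without 2/3 PH 24 h replicate 1 or 3. miR-122, the leading hepatocyte miRNA, was 42590, 35135 and 40666 units in normal liver and 32798, 39460 and 38634 after 2/3 PH, with overlapping groups (−0.09 ± 0.12, adjusted p = 0.671). miR-194, which is made in common transcripts with miR-192, had a log2 difference of −0.0044 ± 0.12 (adjusted p = 0.985). miR-122* had one of −0.29 ± 0.20 (adjusted p = 0.409). The summed level of the 4 was 37469 to 44550 units in normal liver and 34497 to 41373 after 2/3 PH.

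miR-26a was lower with closely grouped arrays. It restrains G1 progression by acting on cyclins and is often low in liver tumours. It was 637, 679 and 636 units in normal liver and 481, 467 and 457 after 2/3 PH, 1.39-fold lower (−0.47 ± 0.11, adjusted p = 0.0106). No treated array came near a normal one. miR-26b, with the same seed, was 388, 407 and 392 units in normal liver and 308, 344 and 336 after 2/3 PH. Its groups did not overlap either, and its difference of −0.27 ± 0.11 had an adjusted p of 0.0875. miR-101b, at 0.10 ± 0.16 (adjusted p = 0.758), was not called.

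Both arms of miR-378 were called lower. This hairpin lies in a gene of mitochondrial metabolism and is known to affect lipid and energy use. miR-378 was 181, 180 and 151 units in normal liver and 111, 108 and 88.9 after 2/3 PH, 1.67-fold lower (−0.74 ± 0.24, adjusted p = 0.0437). miR-378* was 33.9, 34.2 and 27.5 units in normal liver and 17.1, 14.6 and 16.3 after 2/3 PH, 1.99-fold lower (−0.99 ± 0.24, adjusted p = 0.0106). Each arm was low on all 3 treated arrays. The call of miR-378* was kept without any 1 of the 6 arrays, and that of miR-378 was lost without each of them.

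The remaining lower miRNAs came from several families. miR-22, an abundant liver miRNA, was 3143, 2662 and 3186 units in normal liver and 2263, 2315 and 2212 after 2/3 PH, 1.32-fold lower (−0.40 ± 0.13, adjusted p = 0.0439). miR-10a-5p, from the Hox clusters, was 188, 187 and 165 units in normal liver and 138, 143 and 128 after 2/3 PH, 1.32-fold lower (−0.40 ± 0.10, adjusted p = 0.0126). miR-151 was 161, 145 and 139 units in normal liver and 111, 93.2 and 81.8 after 2/3 PH, 1.56-fold lower (−0.65 ± 0.19, adjusted p = 0.0227). In each of these 3 all treated arrays were below all normal arrays. miR-652* was 90.3, 82.2 and 120 units in normal liver and 53.4, 54.9 and 47.04 after 2/3 PH, 1.86-fold lower (−0.90 ± 0.23, adjusted p = 0.0126). The opposite arm, miR-652, was not called (−0.58 ± 0.22, adjusted p = 0.0875). Calls were lost without 2/3 PH 24 h replicate 3 for miR-22, miR-10a-5p, miR-151 and miR-652*, without normal liver 3 for miR-652* and miR-22, without normal liver 1 for miR-151 and miR-22, without 2/3 PH 24 h replicate 2 for miR-151 and miR-22 and without replicate 1 for miR-22.

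Among the called miRNAs, miR-500 had the largest fall and the widest spread. It was 122.1, 32.1 and 43.8 units in normal liver and 21.0, 17.3 and 20.3 after 2/3 PH, 2.86-fold lower (−1.51 ± 0.46, adjusted p = 0.0283). Normal liver 1 was far above the other two normal arrays, and without it the call was lost, as it was without any 1 of the treated arrays. miR-3588 showed the same layout of arrays without passing the test, with 294, 67.6 and 118 units in normal liver and 52.3, 67.2 and 70.2 after 2/3 PH (−1.08 ± 0.69, adjusted p = 0.36).

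Of the leukocyte miRNAs, miR-142-3p and miR-150 were lower. Of 12 arms on the array 6 were members, 2 were called, both lower, where 8.33% of all 144 were called lower. The other 6 arms were detected on none of the 6 arrays. miR-142-3p, found throughout blood cell lineages, was 50.6, 74.1 and 58.0 units in normal liver and 24.2, 39.8 and 25.5 after 2/3 PH, 2.07-fold lower (−1.05 ± 0.27, adjusted p = 0.0126). miR-150, of mature lymphocytes, was 26.2, 28.99 and 28.7 units in normal liver and 18.8, 19.3 and 17.8 after 2/3 PH, lower on every treated array (log2 difference −0.58 ± 0.16, adjusted p = 0.0138). For miR-150 the arrays of each group were close together, and for miR-142-3p they were not. Without 2/3 PH 24 h replicate 1 or 3 both calls were lost, and that of miR-150 also without normal liver 3. The myeloid miR-223 had a log2 difference of −0.24 ± 0.23 (adjusted p = 0.558) and miR-146a one of −0.37 ± 0.19 (adjusted p = 0.249). miR-342-3p was at −0.22 ± 0.28 (adjusted p = 0.671). miR-150*, the opposite arm of miR-150, went the other way at 0.08 ± 0.40 (adjusted p = 0.905), with overlapping groups. The summed level of the 6 was 303 to 332 units in normal liver and 237 to 256 after 2/3 PH. The part of these cells in the other lower miRNAs was not tested.

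No member on the lists of other cell types was called, where 18.1% of all 144 were called. miR-451 of red cells was at −0.32 ± 0.40 (adjusted p = 0.671), with 1 treated array at 50.3 units and the other 5 arrays at 96.4 to 115. miR-144 was detected on none of the 6. miR-126 of endothelium was 583 to 719 units in normal liver and 538 to 608 after 2/3 PH (−0.13 ± 0.16, adjusted p = 0.671). The 4 stellate cell and fibroblast members had a median log2 difference of 0.45, from 0.06 in miR-143 to 0.53 in miR-214, and a summed level of 290 to 372 units in normal liver and 310 to 467 after 2/3 PH. miR-199a-3p, at 0.44 ± 0.26, had an adjusted p of 0.351, and miR-145 was detected on none of the 6 arrays.

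The large differentiation-linked families had no calls, where 18.1% of all 144 were called. Whether so few members differ from that share was not tested. None of the 9 members of the let-7 family passed the test, and their median log2 difference was 0.03. let-7a, for example, was 2129 to 2374 units in normal liver and 2298 to 2311 after 2/3 PH (0.05 ± 0.09, adjusted p = 0.796). At the other end let-7b* was 29.1, 6.69 and 33.6 units in normal liver and 24.9, 41.1 and 52.7 after 2/3 PH, with overlapping groups (1.02 ± 0.80, adjusted p = 0.452). It is a member through the treated group alone, and its 6.69 units stood at the lower limit of normal liver 2. The test was also passed by none of the 8 members of the miR-30 family. All 8 had a log2 difference below 0, with a median of −0.21, where 78 of all 144 were above 0. They include both arms of miR-30a, miR-30b and miR-30e. Of these, miR-30b-3p is a member through the normal group alone, so the common direction is a description. The lowest of these 8, miR-30b-5p, was 128, 140 and 138 units in normal liver and 81.7, 100.7 and 112.8 after 2/3 PH (−0.47 ± 0.17, adjusted p = 0.066), and its groups did not overlap. The 3 members of the miR-29 family, repressors of collagen genes, had a median of −0.06, and the 5 members of the clusters of miR-23, miR-24 and miR-27 one of −0.04. miR-27a was highest among the latter at 0.33 ± 0.14 (adjusted p = 0.125). miR-221, which lowers the inhibitor p27 and of which miR-222 was detected on none of the 6 arrays, was near the lower limit of the arrays and was not called (0.31 ± 0.24, adjusted p = 0.443). Among the relatives of miR-10, miR-99, miR-100 and miR-125, miR-10a-5p was the single called one among 6 members, a share near the 18.1% over all 144. miR-103, miR-107, miR-130a and miR-181a, the members of 3 further families, were not called.

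Some members were detected on all arrays of 1 group only. The 12 that were detected on all treated arrays but not on all normal arrays include the called miR-18a and miR-429. The 12 detected on all normal arrays but not on all treated ones include the called miR-338. Since detection chose these 24, their directions are no result. miR-338 was 23.7, 20.5 and 19.4 units in normal liver and was detected on no array of 2/3 PH, where the lower limits stood at 9.08 to 14.1 units. It was at least 1.63-fold lower (adjusted p = 0.0482, group means 21.1 and 13.0 units with the limit in place of lower values), and the call was lost without any 1 of the 6 arrays. With the brightest probe in place of the summed probes its log2 difference turned to 0.063. miR-331, miR-455* and miR-466b were also detected on all normal arrays and no treated one, and were not called.

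Against the earlier hours of 2/3 PH several polycistron miRNAs were also higher at 24 hours. The arrays of 6 and 12 hours lay on other slides than those of 24 hours, and partly on another scan day. Hour and slide therefore cannot be told apart in these comparisons. The fit called 25 of 144 against 6 hours, or 17.4%, and 23 against 12 hours, or 16%. miR-93 was at 21.4 units (group mean) at 6 hours and 23.1 at 12 hours before its 45.3 at 24 hours, with log2 differences of 1.08 ± 0.13 (adjusted p = 1.02e-05) and 0.97 ± 0.13 (adjusted p = 5.16e-05). miR-106b was at 44.4 and 52.0 units and then at 89.5, with log2 differences of 1.01 ± 0.15 (adjusted p = 0.00012) and 0.78 ± 0.15 (adjusted p = 0.00212). miR-17-5p, miR-20a and miR-20b-5p passed in both comparisons as well, with log2 differences of 0.84 to 1.01. miR-18a was detected on no array at 6 hours, so that it was at least 2.28-fold higher at 24 hours (adjusted p = 0.013), and on 1 of 3 at 12 hours. miR-19b, which did not pass against normal liver, was 0.86 ± 0.19 and 0.94 ± 0.19 above these hours (adjusted p = 0.00279 and 0.00223). miR-25 passed against neither 6 nor 12 hours (0.43 ± 0.16 and 0.34 ± 0.16, adjusted p = 0.076 and 0.18), nor did miR-92a (adjusted p = 0.301 and 0.119), and miR-19a passed against 12 hours only (adjusted p = 0.0319, and 0.1 against 6 hours). The group mean of miR-19b was 552 units in normal liver, 376 and 355 at 6 and 12 hours and 681 at 24 hours. At 12 hours miR-19b was itself below normal liver (−0.63 ± 0.19, adjusted p = 0.0454). miR-29b and miR-101b followed the same order, with log2 differences of −1.01 ± 0.21 and −0.67 ± 0.16 between 12 hours and normal liver (adjusted p = 0.015 and 0.0192) and of 1.05 ± 0.21 and 0.77 ± 0.16 between 24 and 12 hours (adjusted p = 0.00223 and 0.00303). miR-26a was lower at 24 hours than at either hour, by −0.47 ± 0.11 and −0.45 ± 0.11 (adjusted p = 0.0038 and 0.00886).

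**Figure D3:**
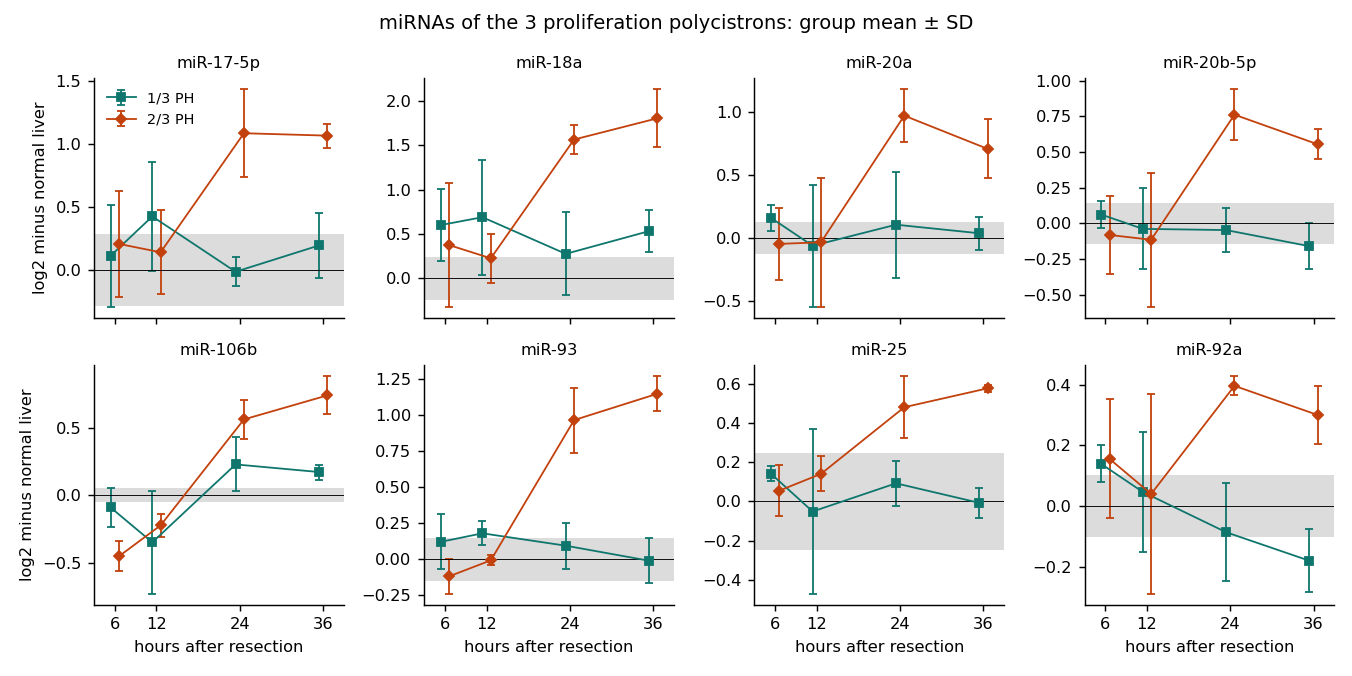
Group mean log2 scaled signal minus that of normal liver (y axis) against hours after resection (x axis) for 8 miRNAs of the polycistrons, with squares for 1/3 PH, diamonds for 2/3 PH, bars for the SD over arrays and a grey band for the SD of normal liver. After 2/3 PH the values at 24 and 36 hours lie above those at 6 and 12 hours in all 8 panels, where miR-18a at 6 and 12 hours is an upper limit. The means of miR-17-5p at 6 and 12 hours include values at the lower limit of an array.

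At 12 hours after 2/3 PH, 10 of 144, or 6.94%, differed from normal liver, and at 6 hours none did in limma, with 15 at an unadjusted p under 0.05. Of the 26 miRNAs called at 24 hours, miR-192, miR-22 and miR-338 were also called against the same normal arrays at 12 hours. By 36 hours 27 of 144, or 18.8%, were called, and 20 of these 27 were among the 26, although the 2 comparisons share the normal arrays. Between 24 and 36 hours a single miRNA passed, 0.694% of those tested. It was miR-15b, with a group mean of 342.2 units at 24 hours and 604 at 36 hours (0.82 ± 0.14, adjusted p = 0.00183). The arrays of 36 hours lay on other slides and were scanned on later days than those of 24 hours. Hour, slide and scan day cannot be told apart between them. miR-34a was at 129 units (group mean of scaled signal) at 24 hours and 198 at 36 hours, a log2 difference of 0.61 ± 0.22 that did not pass (adjusted p = 0.295).

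**Figure D4:**
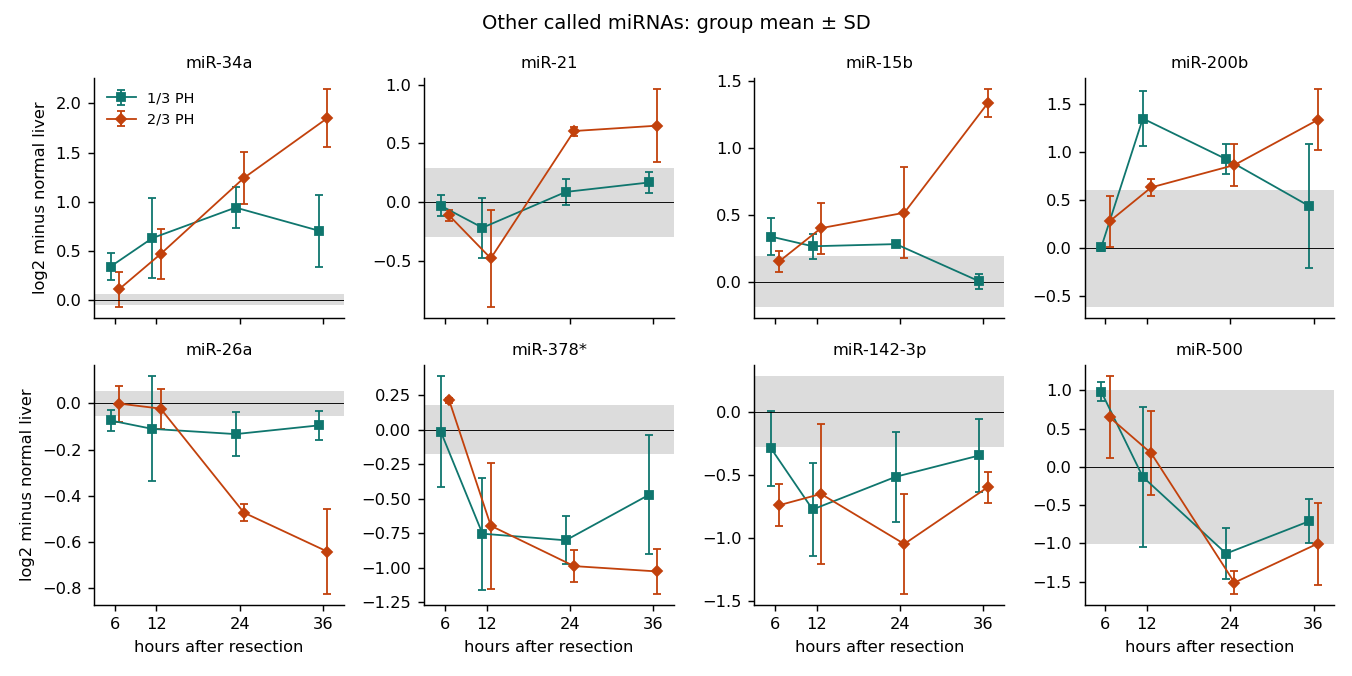
Group mean log2 scaled signal minus that of normal liver (y axis) against hours after resection (x axis) for 8 other called miRNAs, with symbols, bars and band as in the plot of the polycistrons by hour. miR-15b stands higher at 36 than at 24 hours after 2/3 PH, and miR-200b and miR-378* lie close together after both operations at 24 hours.

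The 1/3 PH at 24 hours, which removes less liver and is followed by little DNA synthesis, gives a comparison with surgery in both groups. Here 4 of 144 passed, 2.78%, all higher after 2/3 PH and all from the polycistrons. miR-93 was 22.5 to 28.0 units after 1/3 PH, against 38.9 to 53.1 after 2/3 PH (log2 difference 0.87 ± 0.13, adjusted p = 0.000248). miR-17-5p was 12.3 to 14.4 units after 1/3 PH (1.10 ± 0.25, adjusted p = 0.0217), miR-18a 8.13 to 14.95 (1.29 ± 0.33, adjusted p = 0.0345) and miR-20b-5p 42.8 to 52.7 (0.81 ± 0.20, adjusted p = 0.0271). The lower limits of the 1/3 PH arrays stood at 7.2 to 14.3 units. miR-17-5p and miR-18a were thus at or near these limits after 1/3 PH, and their differences depend in part on them. The values after the 2 operations did not overlap in the 4 called miRNAs. How many of all 144 had groups without overlap in this comparison was not counted, so this is a description. The 1/3 PH arrays lay on other slides, 2 scanned on the first day and 1 on the last, and with slide or scan day as a block or the first scan day alone miR-93 was the single call, so that miR-17-5p, miR-18a and miR-20b-5p lost theirs. miR-106b, at 0.33 ± 0.15, and miR-25, at 0.39 ± 0.16, did not pass (adjusted p = 0.392 and 0.301). Only miR-93 passed whichever of the 6 arrays was left out, and it was the single call without 1/3 PH 24 h replicate 2 or 3 or 2/3 PH 24 h replicate 1, while 2 were called without 2/3 PH 24 h replicate 2. Without the dimmest array of the series, 1/3 PH 12 h replicate 2, which takes part only in the estimate of the spread, 9 passed, with miR-20a, miR-25, miR-345-5p and miR-92a added among the higher ones and miR-26a as the single lower one.

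Several other called miRNAs had close group values after both operations at 24 hours, and others did not. Against normal liver, 1/3 PH had 1 call, 0.694%, which was miR-34a, at 89.2 to 115 units on its arrays and with a log2 difference of 0.94 ± 0.22 (adjusted p = 0.0469). The log2 difference of miR-34a between 2/3 PH and 1/3 PH was 0.30 ± 0.22 (adjusted p = 0.814). miR-378* had a group mean of 18.2 units after 1/3 PH and 15.97 after 2/3 PH, miR-429 23.3 and 25.5, miR-200b 59.6 and 57.1 and miR-150 20.01 and 18.6. None of these passed between the operations, which does not show that the operations act alike. miR-21 was 5964 and 8549 units (log2 difference 0.52 ± 0.19, adjusted p = 0.173), and miR-26a 593 and 469 (−0.34 ± 0.11, adjusted p = 0.115).

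The 3 arrays of 1/3 PH at 36 hours lay on the same slide as those of 2/3 PH at 24 hours, in the other row, and had no call against normal liver in limma, with 7 at an unadjusted p under 0.05. This comparison within the slide mixes extent of resection and hour. Of 144 miRNAs 10 passed, 6.94%, and 9 of them were among the 26. miR-93 (0.97 ± 0.13, adjusted p = 4.96e-05), miR-20b-5p (0.92 ± 0.20, adjusted p = 0.00935), miR-1949, miR-20a, miR-17-5p, miR-15b and miR-92a were higher in 2/3 PH at 24 hours. miR-652* (−0.87 ± 0.23, adjusted p = 0.0294), miR-22 and miR-26a were lower. miR-34a, at 0.54 ± 0.22 (adjusted p = 0.163), and miR-378*, at −0.52 ± 0.24 (adjusted p = 0.248), did not pass. Leaving out a 2/3 PH 24 h array gave 2, 3 and 4 calls and leaving out 1/3 PH 36 h replicate 2 or 3 gave 1 and 2, with miR-93 in each.

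Scan day changed several values of the main comparison. With scan day as a block 19 miRNAs were called, 8 higher and 11 lower, and 14 of the 26 were among them. With the arrays of the first scan day alone, which hold 1 normal array, 12 were called, 7 higher and 5 lower, and 8 of the 26 were among them. miR-93 had a log2 difference of 0.89 under either setting, and miR-34a 1.06 with the block and 1.30 on the first day. miR-25 fell to 0.25 and 0.21 and miR-15b to 0.41 and 0.30, and neither was called. miR-200b stood at 0.76 and 0.45 and lost its call under both settings. miR-142-3p stood at −0.79 and −0.80, and it kept its call with the block and lost it on the first day. The block also removed the calls of miR-20b-5p, miR-22, miR-150, miR-151, miR-192, miR-338, miR-345-5p, miR-378 and miR-429. miR-500 moved the other way, to −2.19 and −2.65, since the first scan day holds its highest normal array.

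**Figure D5:**
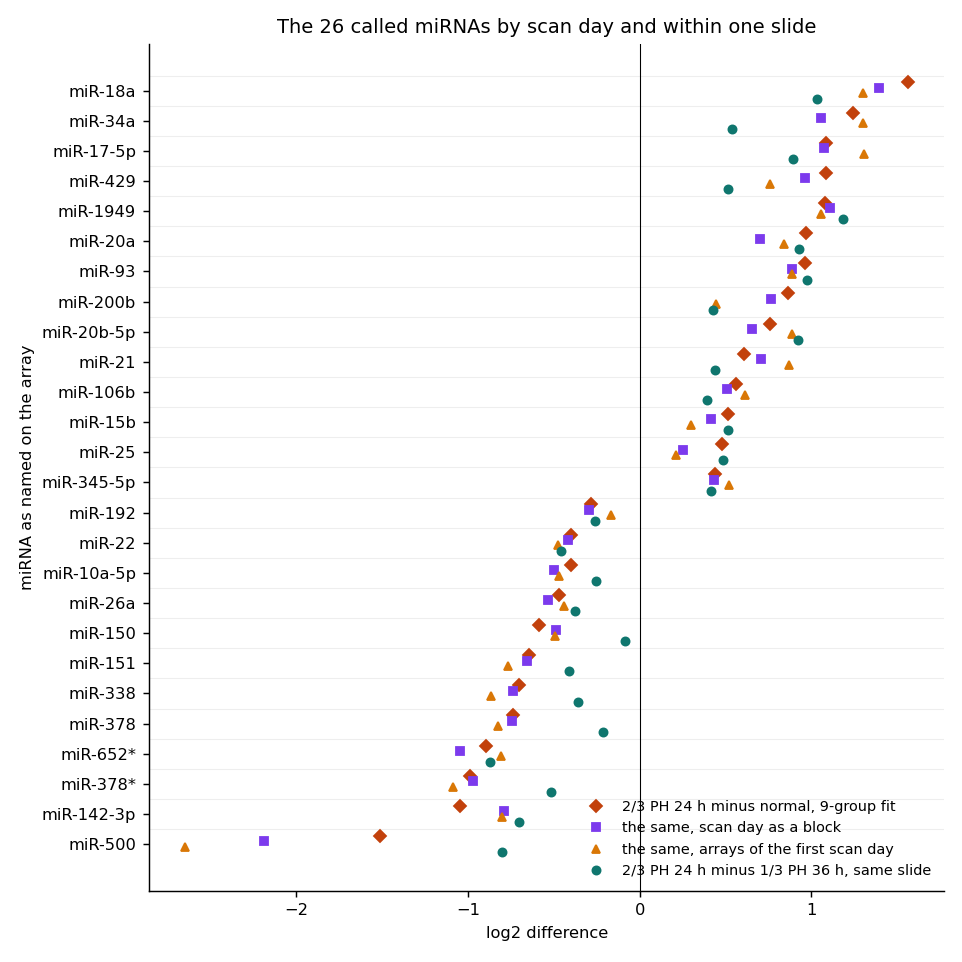
Log2 differences (x axis) of the 26 called miRNAs (y axis) in the fit of 9 groups (diamonds), with scan day as a block (squares), on the first scan day alone (triangles) and between 2/3 PH at 24 hours and 1/3 PH at 36 hours on the same slide (circles). All 4 share the 2/3 PH 24 h arrays, and each miRNA keeps its sign in them.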

How the data were processed

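Right-lobe liver RNA of 26 male rats in 9 groups was hybridized to 26 single-colour rat miRNA arrays, and 6 arrays form the comparison. The authors deposited spot intensity values from Agilent Feature Extraction 10.7.3.1, background-subtracted and not normalized between arrays, with the software's detection calls. A second deposited table gives log2 values that the authors normalized between arrays by a method not given in the sources used here, and it served as an alternative. The test used in the study for the arrays is not given in the sources used here.

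Probe signals were the means of spots without outlier flags, and probes of a miRNA were summed (1644 probes, 677 miRNAs). Scaling used the 75th percentile of each array, taken over 109 probes that the software called well above background throughout, signals under the array's lowest probe well above background were set to that limit, and log2 was taken. Reported units are the scaled signals before log2, and group means are geometric. limma 3.58.1 (R 4.3.3) fitted 9 group means over the 144 miRNAs that were detected throughout at least 1 group, with Benjamini-Hochberg adjustment over the 144 in each comparison and a threshold of 0.05. The residual degrees of freedom were 17 and the prior degrees of freedom 2.32. The fit was tested on simulated data.

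The members and lists were chosen with earlier results of these data known. Every called miRNA was named, with array values for those on the lists and for the 8 largest differences each way among miRNAs detected on all 6 arrays. Of each list 2 to 4 were named, called ones first and then by mean signal, and other uncalled ones named in the text were chosen after their values were seen. Sequences and gene spans came from RefSeq (GRCr8), with arms matched by name. Alternatives were other scalings, background correction, summaries, detection filters, floors, blocks and fits, and leaving out arrays. The number of arrays and the signal over background limit the precision.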

Additional observations from a re-analysis of the deposited data

Results flagged for a closer look

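Groups of 3 arrays are too small for the check on single outlying arrays. The difference between the operations at 24 hours passed limma's test for 4 miRNAs, each higher after 2/3 PH than after 1/3 PH. The log2 differences were 1.10 for miR-17-5p, 1.29 for miR-18a, 0.81 for miR-20b-5p and 0.87 for miR-93, with 3 arrays in each group. Over the 22 alternatives miR-93 was called in 17, miR-17-5p in 8, miR-20b-5p in 7 and miR-18a in 5, and all 4 kept their direction.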

How the results depend on the processing

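For 2/3 PH at 24 hours against normal liver (26 calls, 14 higher and 12 lower), leaving the arrays unscaled, scaling by a percentile over all probes and normexp correction each left 0 calls in limma, with 13, 13 and 7 at an unadjusted p under 0.05. They left 0 in the other 3 comparisons too, with 0 to 13 at an unadjusted p under 0.05. The percentile over all probes moved the median of all 144 to −0.41. Quantile normalization gave 15 (9 higher, 6 lower), the deposited log2 values 14 (7 and 7), slide as a random block 16 (9 and 7), scan day as a block 8 higher, the first scan day alone 12 (7 and 5) and a fit of the 6 arrays 15 (7 higher). In both of the last fits fewer arrays estimate the spread, and the lone normal array was assumed to vary like the other groups. For other settings the cause was not tested. Leaving out 1 array gave 9 to 21 calls (4 to 12 higher, 2 to 10 lower), with fewer samples by construction. Without the dimmest array of the series there were 32.

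For 2/3 PH against 1/3 PH at 24 hours (4 calls), total gene signal, the brightest probe, slide as a random block, scan day as a block and the first scan day gave 1, a floor of 1 unit and the deposited values 2, a fit of only these groups 0 (13 at an unadjusted p under 0.05), the dimmest array left out 9 and unadjusted p 15. Leaving out 1 array gave 1 to 4. For 36 against 24 hours after 2/3 PH (1 call), quantile normalization gave 4, a fit of only these groups 0 (18 unadjusted), the dimmest array left out 2, unadjusted p 11 and leaving out 1 array 1 to 2. The first scan day could not be run here, since it holds no 36-hour array of 2/3 PH. Within the slide (10 calls), the brightest probe gave 4, detection on at least 1 array 3, a fit of only these groups 6, unadjusted p 24 and leaving out 1 array 1 to 7.

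Of the 26 called miRNAs 23 kept their sign in every alternative. miR-338 turned to 0.063 with the brightest probe, miR-345-5p to −0.020 with the percentile over all probes, and miR-21 was 0.00 under quantile normalization, where its rank was equal on the arrays compared. Of the uncalled ones named, miR-455* turned to −1.71 with a floor of 1 unit and then passed. No paired analysis was possible because the replicate numbers do not link rats of different groups.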
